A study of Mus musculus with 32 samples.

Results

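RNA of the oxygen-response pathway was followed in primary chondrocytes, the matrix-making cells of cartilage, from 2 inbred mouse strains. The pathway was represented by 10 named genes: the HIF alpha subunits Hif1a and Epas1, and the hypoxia-responsive genes Vegfa, Car9, Car12, Slc2a1, Pfkfb3, Egln3, Bnip3 and Ndrg1. The choice went by name and function, and its rule used no measured value, but it was made with earlier results of these data known. All 10 of 10 were found among 41388 gene IDs and passed the filter on low counts that kept 16136 genes. LG/J mice are known to repair ear and cartilage injuries well and SM/J mice to repair them poorly, and the question was which strain expresses more of each gene. The groups were LG/J males, LG/J females, SM/J males and SM/J females, all with no allele or agent beyond the strain background named in the labels, with 8 libraries each and 32 in all. Every group came from femoral heads at postnatal day 21, and its cells were plated at 100000 per well in medium with 10% serum and harvested after 4 days without passage. The labels do not say whether libraries of a group came from separate animals or cultures, so p-values measure the spread between libraries, which may be technical.

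HIF transcription factors pair an alpha subunit, made by Hif1a or Epas1, with a constant beta subunit. When oxygen is present, prolyl hydroxylases of the EGLN family mark the alpha subunit and the VHL protein sends it to degradation, so that HIF activity is set largely at the level of protein. Cartilage has no blood vessels, and growth plate chondrocytes of mice depend on HIF1A to survive. The files hold RNA only: neither HIF protein nor oxygen was measured in them.

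Total counts were 15840330 to 25571598 per library. Levels below are read counts relative to library size, scaled by the trimmed mean of M values (TMM CPM), and a gene was called at a Benjamini-Hochberg adjusted p under 0.05 in edgeR's quasi-likelihood test over all genes kept. Chondrocyte markers were present in every library, but both LG/J libraries numbered 1 stood apart. Their 9 chondrocyte markers summed to 1753 to 2821 CPM, where the 14 LG/J libraries besides these held 16760 to 50450 CPM and SM/J 11150 to 42450 CPM. Their 8 early response and inflammation genes summed to 32690 to 43880 CPM, where the same 14 held 41.9 to 1166 CPM and SM/J 159 to 2990 CPM. Most of that sum was Mmp3, at 27410 to 35070 CPM in them. Mmp3, Cxcl1, Ccl2, Nos2, Il6, Egr1 and Jun lay above all other libraries. Fos was at 23.1 to 27.7 CPM in them, against at most 26.5 CPM in other LG/J libraries and 26.3 CPM in SM/J. In 6 libraries (LG/J females 4 and 5, SM/J females 3 and 4, SM/J males 2 and 3) the female transcript Xist and the Y-linked Ddx3y were both at 10 CPM or more, against their labels. Within groups, 6 pairs of libraries counted as close, under a chosen limit of 5 times sampling noise (3.96 to 4.57, next pair 5.31). Values without these libraries are given beside many of the results that they change, but not for every change or combination.

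Between the strains, 8 of the 10 genes differed over both sexes, against 29.9% of all genes tested. Hif1a, Vegfa, Car9, Car12, Pfkfb3, Egln3 and Bnip3 were higher in LG/J (7 of 10, against 16.4% of all genes) and Ndrg1 was lower (1 of 10, against 13.5%). Without both LG/J libraries numbered 1, 3 of the 10 differed, against 32.2% of all genes: Hif1a, Car12 and Bnip3 were higher (against 17.1% of all genes), and none was lower (against 15.1%), with Ndrg1 at an unadjusted p of 0.028. The median log2 fold change of the 10 genes was 0.61 with all libraries and 0.40 without those 2, beside 0.02 and -0.00 for all genes tested. With all libraries 3 of 9 chondrocyte markers and 5 of 8 early response and inflammation genes were higher in LG/J. Of 7 macrophage markers 2 were lower, and of 6 fibroblast markers 1 was higher and 1 lower. The sum of the inflammation genes was high in both LG/J libraries numbered 1. In the other LG/J libraries it was 41.9 to 1166 CPM, overlapping SM/J at 159 to 2990 CPM. Marker counts without those 2 libraries are not given. The part of these markers in the differences below was not tested. In bulk RNA, fewer cells expressing a gene and less of its RNA per cell cannot be told apart.

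**Figure D1:**
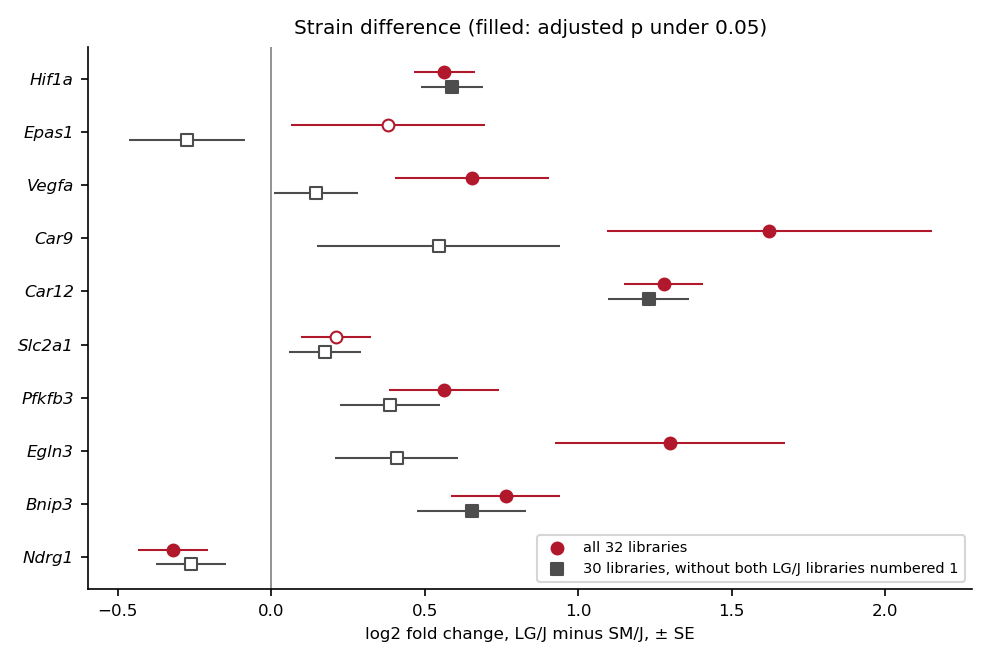
Log2 fold change of each gene over both sexes (LG/J minus SM/J) with its standard error (bars), from all 32 libraries (red circles) and from 30 libraries without both LG/J libraries numbered 1 (grey squares). Filled symbols passed at an adjusted p under 0.05: Hif1a, Car12 and Bnip3 are filled in both fits, while Epas1 lies at 0.38 in 1 fit and at -0.28 in the other.

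Hif1a, the oxygen-sensitive subunit of the HIF-1 factor (ENSMUSG00000021109, GRCm38 chromosome 12, 73901375 to 73947530, + strand), was higher in LG/J of both sexes. Its lowest, median and highest levels were 152, 217 and 265 CPM in LG/J males, against 99.1, 137 and 174 CPM in SM/J males. In LG/J females they were 154, 193 and 338 CPM, against 136, 143 and 179 CPM in SM/J females. All 16 LG/J libraries lay above the SM/J median, and 10 of them above every SM/J library, so the strains overlapped at their edges. Mean levels were 209 ± 51.3 CPM for LG/J and 141 ± 18.9 CPM for SM/J (SD, n = 16 each), a 1.48-fold difference (log2 fold change 0.56 ± 0.10 SE, adjusted p = 3.67e-05). It was as large without both LG/J libraries numbered 1, whose levels of 167 CPM in the female and 205 CPM in the male lay inside the range of the other LG/J libraries (0.59 ± 0.10, adjusted p = 3.07e-05). In males alone the difference was 0.61 ± 0.14 (adjusted p = 0.00161) and in females alone 0.52 ± 0.14 (adjusted p = 0.0095). The female call was lost without the 6 libraries that held transcripts of both sexes (0.43, adjusted p = 0.132) and with close pairs summed (0.49, adjusted p = 0.0588), in a range of 0.00533 to 0.132 over its alternatives. An antisense gene, Gm15283, overlaps Hif1a but averaged 0.441 CPM.

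Epas1 encodes the other oxygen-sensitive alpha subunit, HIF-2 alpha, which in mice has been tied to cartilage breakdown (ENSMUSG00000024140, chromosome 17, 86753907 to 86833410, + strand). Its level was 144 CPM in the LG/J male and 166 CPM in the LG/J female numbered 1. In the other 14 LG/J libraries it ranged over 5.07 to 42.3 CPM with a median of 28.5 CPM, and in SM/J over 15.97 to 54.8 CPM with a median of 32.8 CPM. Those 2 libraries thus lay above all 30 others, and the remaining LG/J libraries overlapped SM/J almost throughout. No strain difference passed, whether with all libraries (0.38 ± 0.31, adjusted p = 0.398) or without those 2, where the sign turned (-0.28 ± 0.19, adjusted p = 0.289). The 95% interval of that second estimate runs from -0.65 to 0.10. LG/J female 2, the library with the least Epas1 at 5.07 CPM (106 counts), had the most Hif1a of all at 338 CPM.

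**Figure D2:**
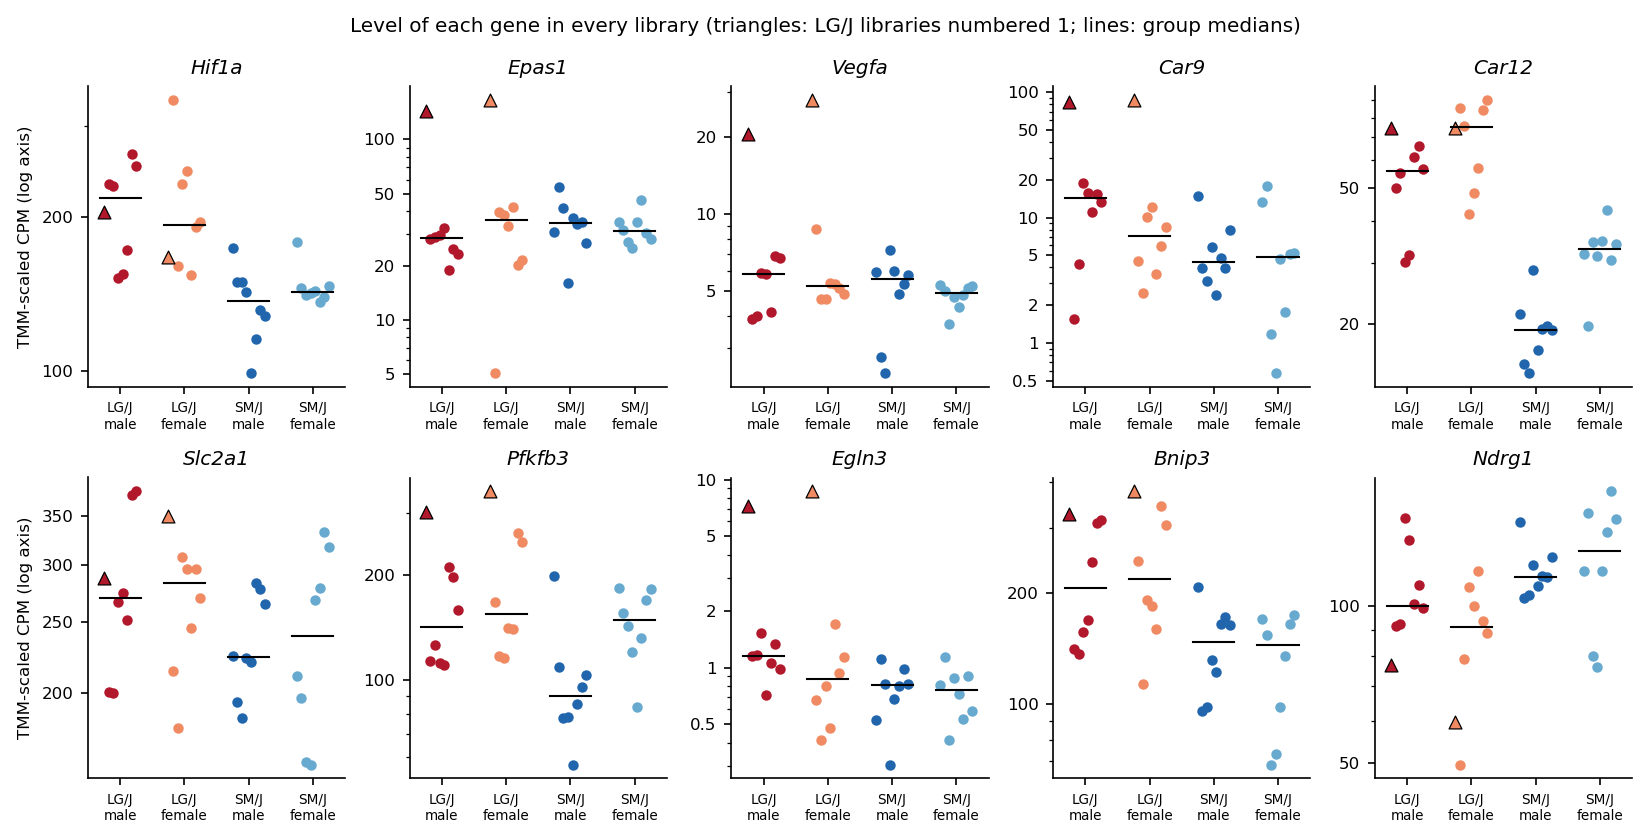
TMM-scaled CPM of each gene on a log axis in every library, 1 point per library, for LG/J males, LG/J females, SM/J males and SM/J females (8 each), with group medians as lines and both LG/J libraries numbered 1 as triangles. The triangles stand above all other points for Epas1, Vegfa, Car9, Pfkfb3 and Egln3, while for Car12 the strains do not overlap in males and overlap in females.

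The carbonic anhydrases Car12 and Car9 are membrane enzymes with an outward-facing active site that turn carbon dioxide into bicarbonate and protons and so set the pH outside the cell. Car12 (ENSMUSG00000032373, chromosome 9, 66713686 to 66766845, + strand) gave the strain difference with the smallest p among the 10 genes. Its lowest, median and highest levels were 30.3, 55.9 and 74.6 CPM in LG/J males, against 14.3, 19.2 and 28.7 CPM in SM/J males. In LG/J females they were 41.8, 75.2 and 90.3 CPM, against 19.7, 33.1 and 43.0 CPM in SM/J females. The strains did not overlap in males, where 2.96% of all genes tested had every LG/J library above every SM/J library, and in females 7 of 8 LG/J libraries lay above all SM/J libraries. LG/J averaged 61.4 ± 18.5 CPM of Car12 and SM/J 26.0 ± 8.71 CPM (SD, n = 16 each), 2.42-fold higher (1.28 ± 0.13, adjusted p = 1.71e-09). Without both LG/J libraries numbered 1 the estimate was 1.23 ± 0.13 (adjusted p = 1.01e-08). The difference was 1.46 ± 0.18 in males (adjusted p = 2.73e-07) and 1.09 ± 0.18 in females (adjusted p = 3.87e-05).

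Car12 was also the only one of the 10 genes to differ between the sexes over both strains (1 of 10, against 3.46% of all genes), and it was lower in males (against 2.13%). LG/J males averaged 53.2 ± 15.6 CPM and LG/J females 69.6 ± 18.3 CPM, SM/J males 19.3 ± 4.46 CPM and SM/J females 32.6 ± 6.45 CPM (SD, n = 8 each). The estimate over both strains, male minus female, was -0.57 ± 0.13 (adjusted p = 0.0145). That call was lost with close pairs summed, which left 26 libraries (-0.54, adjusted p = 0.0918, in a range of 0.00166 to 0.0918 over its alternatives). Without the 6 libraries that held transcripts of both sexes it was kept (-0.60, adjusted p = 0.022). Pfkfb3 came next, at -0.38 ± 0.18 with an unadjusted p of 0.0441, and missed the adjusted limit (adjusted p = 0.251).

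Car9, a textbook HIF target (ENSMUSG00000028463, chromosome 4, 43506966 to 43513729, + strand), followed the LG/J libraries numbered 1. It was at 84.2 CPM in the LG/J male and 87.4 CPM in the LG/J female with that number. In the other 14 LG/J libraries it ranged from 1.54 to 19.0 CPM with a median of 9.30 CPM, and in SM/J from 0.574 to 17.8 CPM with a median of 4.72 CPM. The lower of those 2 values was 4.43 times the next highest, and the rest overlapped across strains. Over all libraries the difference passed (1.62 ± 0.53, adjusted p = 0.0197), but not without the LG/J female numbered 1 (0.97, adjusted p = 0.106), without the LG/J male numbered 1 (1.21, adjusted p = 0.0631) or without both (0.55 ± 0.40, adjusted p = 0.316). Nor did it pass without the 6 libraries that held transcripts of both sexes (1.42, adjusted p = 0.0925). Over its alternatives the adjusted p ran from 0.00576 to 0.932. The overlapping antisense gene Gm12454 averaged 0.596 CPM.

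Bnip3, a mitochondrial outer membrane protein that marks mitochondria for removal (ENSMUSG00000078566, chromosome 7, 138890836 to 138909519, - strand), was higher in LG/J. Its lowest, median and highest levels were 137, 206 and 328 CPM in LG/J males, against 95.9, 148 and 208 CPM in SM/J males. In LG/J females they were 114, 218 and 378 CPM, against 68.4, 144 and 174 CPM in SM/J females. Of 16 LG/J libraries, 8 lay above all SM/J libraries and 13 above their median, so the overlap was wider than for Hif1a. Mean levels were 233 ± 86.5 CPM for LG/J and 137 ± 40.8 CPM for SM/J (SD, n = 16 each), a 1.70-fold difference (0.76 ± 0.18, adjusted p = 0.00134). The libraries numbered 1 had 328 CPM in the LG/J male and 378 CPM in the LG/J female, and without them the difference was 0.65 ± 0.18 (adjusted p = 0.00534). It passed in females (0.89 ± 0.25, adjusted p = 0.0153), but not there without the 6 libraries that held transcripts of both sexes (0.77, adjusted p = 0.0649) or with close pairs summed (0.75, adjusted p = 0.0846). In males it missed the limit (0.64 ± 0.25, adjusted p = 0.0673) and passed without LG/J male 2 (0.71, adjusted p = 0.0446), LG/J male 3 (0.72, adjusted p = 0.0438) or SM/J male 1 (0.73, adjusted p = 0.0381), with close pairs summed (0.82, adjusted p = 0.0393) and with the library number as a block.

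The genes of glucose use split. Pfkfb3, which makes the signal that speeds glycolysis (ENSMUSG00000026773, chromosome 2, 11471430 to 11502101, - strand), was at 303 CPM in the LG/J male and 348 CPM in the LG/J female numbered 1. The other LG/J libraries ranged over 110 to 264 CPM with a median of 140 CPM, and SM/J over 57.1 to 198 CPM with a median of 115 CPM. All 8 LG/J males lay above the SM/J male median and 7 of 8 SM/J males below every LG/J male, while the females overlapped broadly. The difference was 0.56 ± 0.18 over both sexes (adjusted p = 0.017) and 0.39 ± 0.16 without both libraries numbered 1 (adjusted p = 0.0684). In males alone it passed (0.73 ± 0.26, adjusted p = 0.0376), a call lost in 9 of 32 single-library omissions. Those were the fits without LG/J male 1 (0.55, adjusted p = 0.112), LG/J male 6 or 7, or SM/J male 3, 4, 5, 6, 7 or 8, with adjusted p between 0.0543 and 0.112. It was also lost without both libraries numbered 1 (0.55, adjusted p = 0.0812) and without the 6 libraries that held transcripts of both sexes (0.69, adjusted p = 0.0957). SM/J male 1 had 198 CPM, against 57.1 to 109 CPM in the other SM/J males.

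Slc2a1, the glucose transporter GLUT1 (ENSMUSG00000028645, chromosome 4, 119108711 to 119137330, + strand), was among the most abundant of the 10 genes and did not pass between strains in the fit of all 32 libraries. It ranged from 179 to 379 CPM with a median of 272 CPM in LG/J, and from 159 to 333 CPM with a median of 224 CPM in SM/J. The strains overlapped over most of that range, with 3 of 16 LG/J libraries above all SM/J libraries. The estimate was 0.21 ± 0.11 (adjusted p = 0.172), with a 95% interval of -0.01 to 0.43. It was 0.054 without the 6 libraries that held transcripts of both sexes (adjusted p = 0.788) and passed with the library number as a block (0.21, adjusted p = 0.0289), in a range of 0.0289 to 0.96 over its alternatives.

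Vegfa, the main growth factor of blood vessels, and Egln3, a prolyl hydroxylase that acts on HIF alpha subunits and is itself induced by HIF, were low genes with the pattern of Car9. Vegfa (ENSMUSG00000023951, chromosome 17, 46016993 to 46032377, - strand) was at 20.6 CPM in the LG/J male and 27.99 CPM in the LG/J female numbered 1. It ranged from 3.89 to 8.75 CPM in the other LG/J libraries, with a median of 5.25 CPM, and from 2.40 to 7.27 CPM in SM/J, with a median of 5.10 CPM. Apart from those 2 libraries the strains overlapped: 1 of the other 14 LG/J libraries lay above all SM/J libraries. The difference of 0.65 ± 0.25 just passed (adjusted p = 0.0476) and fell to 0.14 ± 0.14 without both (adjusted p = 0.455). The call was also lost without the 6 libraries that held transcripts of both sexes (0.60, adjusted p = 0.125). It was lost in 21 of 32 single-library omissions, the adjusted p reaching 0.163 without LG/J female 1 (0.36) and 0.132 without LG/J male 1 (0.44). It held when the library left out was LG/J female 3 to 8, LG/J male 2, 3 or 6, or SM/J male 1 or 4.

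Egln3 (ENSMUSG00000035105, chromosome 12, 54178981 to 54203860, - strand) was at 7.26 CPM (115 counts) in the LG/J male and 8.69 CPM (141 counts) in the LG/J female numbered 1. The other LG/J libraries held 0.412 to 1.72 CPM and SM/J libraries 0.305 to 1.14 CPM, or 6 to 35 counts each. Among those 30 libraries, 6 of 14 LG/J libraries lay above all 16 SM/J libraries. The difference was 1.30 ± 0.37 with all libraries (adjusted p = 0.00822) and 0.41 ± 0.20 without both (adjusted p = 0.119). Both LG/J libraries numbered 1 lay above all 30 others for 5 of the 10 genes (Epas1, Vegfa, Car9, Pfkfb3 and Egln3), against 9.87% of all genes tested. Their share of chondrocyte markers and of inflammation genes is given above, and its part in these levels was not tested. Fibroblast markers summed to 354 to 478 CPM in both, where the remaining LG/J libraries held 577 to 3894 CPM and SM/J 981 to 5262 CPM. Within that list Col1a1, Col1a2 and Acta2 lay below all other libraries. Pdgfra went the other way, at 132.7 to 134.5 CPM in both, against at most 75.1 CPM in other LG/J libraries and 73.4 CPM in SM/J. Col3a1 and Thy1 lay inside the range of the other LG/J libraries. Osteoclast markers came to 137 to 157 CPM in both, where the remaining LG/J libraries held 195 to 457 CPM and SM/J 240.0 to 502 CPM. Most of that sum was Ctsk, at 123.4 to 125.5 CPM in both. Acp5 was at 11.7 CPM in the female and 29.9 CPM in the male, against 12.3 to 28.3 CPM in the remaining LG/J libraries. Calcr, Ocstamp and Dcstamp reached 0.925 CPM at most in both. Osteoblast markers came to 547 to 809 CPM in both, where the remaining LG/J libraries held 618 to 3848 CPM and SM/J 693 to 2805 CPM. The neutrophil marker S100a8 was at 30.5 to 91.6 CPM in them, against at most 0.619 CPM in other LG/J libraries and 4.70 CPM in SM/J, but its partner S100a9 reached 0.123 CPM at most. Macrophage markers summed to 163 to 167 CPM in them, within the range of 28.9 to 1582 CPM of the other LG/J libraries and of 77.3 to 990 CPM of SM/J. Most of that sum was Cd68, at 148 to 151 CPM. Lyz2 was at 11.7 to 12.8 CPM in them, against 9.10 to 1025 CPM in other LG/J libraries and 44.7 to 453 CPM in SM/J. Adgre1, Csf1r, Fcgr1 and Mrc1 reached 0.884 CPM at most in them. Endothelial markers summed to 6.12 to 8.57 CPM in them, against 1.63 to 10.2 CPM in other LG/J libraries and 1.48 to 9.68 CPM in SM/J.

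Ndrg1, a gene downstream of MYCN that rises under hypoxia and other stress (ENSMUSG00000005125, chromosome 15, 66929321 to 66969640, - strand), ran the other way. It ranged from 49.6 to 147 CPM with a median of 96.4 CPM in LG/J, and from 76.3 to 166 CPM with a median of 117 CPM in SM/J. The overlap was broad, with 2 of 16 LG/J libraries below all SM/J libraries. It came to -0.32 ± 0.11 (adjusted p = 0.0328), or to -0.26 ± 0.11 (adjusted p = 0.0772) once the 2 LG/J libraries numbered 1 were left out, whose own levels were 76.9 CPM in the male and 59.9 CPM in the female. The call was lost in 6 of 32 single-library omissions (LG/J female 1, LG/J male 1, SM/J females 2, 7 and 8, and SM/J male 1), at an adjusted p of at most 0.058. It was also lost with library size as the sole scaling (-0.29, adjusted p = 0.0911) and with no filter on low counts (-0.32, adjusted p = 0.0576). Without the 6 libraries that held transcripts of both sexes it was -0.48 ± 0.11 (adjusted p = 0.00238), and without those 6 and both libraries numbered 1 it was -0.41 ± 0.11 (adjusted p = 0.00611). In females it was -0.51 ± 0.16 (adjusted p = 0.032), a call lost on leaving out LG/J female 1 or 2 or SM/J female 2, 6, 7 or 8 (adjusted p of at most 0.072), and in males -0.13 ± 0.16 (adjusted p = 0.626). Without the 6 libraries it was -0.79 ± 0.17 in females (adjusted p = 0.00185) and -0.18 ± 0.16 in males (adjusted p = 0.47).

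Within one sex, 4 of the 10 genes were called in females, against 13.4% of all genes: Hif1a, Car12 and Bnip3 were higher (against 6.87%) and Ndrg1 was lower (against 6.49%). In males 3 were called, against 22.3%: Hif1a, Car12 and Pfkfb3 were higher (against 12.8%) and none was lower (against 9.48%), nor at an unadjusted p under 0.05 or with DESeq2. None of the 10 had all its LG/J libraries above all SM/J libraries over both sexes (against 1.36% of all genes) or in females (against 2.04%), and Car12 did so in males. No difference between the sexes in the strain difference itself was called for any of the 10 (0 of 10, against 0.0062% of all genes, with edgeR, and 0 with DESeq2 and with voom). In the fit of all 32 libraries none of the 10 had an unadjusted p under 0.05 for it. For Ndrg1 it was 0.38 ± 0.23 with all libraries (adjusted p = 0.736) and 0.61 ± 0.23 without the 6 libraries that held transcripts of both sexes (unadjusted p = 0.013, adjusted p = 0.293), males minus females. The interval of that difference was wide for several genes, from -0.95 to 0.44 for Bnip3 and from -0.37 to 1.03 for Pfkfb3, males minus females on the log2 scale.

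On a scale that allows genes to be compared, CPM per kilobase of gene length (RPKM), Bnip3 and Slc2a1 led in both strains. Bnip3 averaged 103 ± 38.2 RPKM in LG/J and 60.5 ± 18.03 RPKM in SM/J. Slc2a1 averaged 96.2 ± 21.1 RPKM in LG/J and 83.2 ± 18.7 RPKM in SM/J, so these neighbours lay within their spread of each other in LG/J. Hif1a followed at 35.4 ± 8.71 RPKM in LG/J and 24.0 ± 3.20 RPKM in SM/J, above Epas1 at 8.19 ± 8.42 RPKM in LG/J and 6.28 ± 1.70 RPKM in SM/J. Vegfa, at 1.82 ± 1.56 RPKM in LG/J and 1.15 ± 0.281 RPKM in SM/J, and Egln3, at 0.706 ± 0.909 RPKM in LG/J and 0.282 ± 0.0882 RPKM in SM/J, were the lowest (SD, n = 16 each so far). Without both LG/J libraries numbered 1, LG/J averaged 5.19 ± 1.84 RPKM of Epas1, 1.27 ± 0.309 RPKM of Vegfa and 0.379 ± 0.142 RPKM of Egln3 (SD, n = 14).

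The promoters of the 3 genes that differed with and without the libraries numbered 1, and of Car9 and Egln3, which were high in those libraries, are shown for the core of the HIF-binding site. Each is the 250 bases before the RefSeq start on GRCm38.p6, read 5′ to 3′ on the gene's strand, with capitals for ACGTG or GCGTG on either strand (CACGT or CACGC when read on the printed one). A CACGTG counts once on each strand.
Hif1a: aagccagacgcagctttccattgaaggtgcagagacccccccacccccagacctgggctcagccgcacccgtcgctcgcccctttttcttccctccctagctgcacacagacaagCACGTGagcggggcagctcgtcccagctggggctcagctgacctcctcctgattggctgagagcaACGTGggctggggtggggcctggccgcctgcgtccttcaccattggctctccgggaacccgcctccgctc
Car12: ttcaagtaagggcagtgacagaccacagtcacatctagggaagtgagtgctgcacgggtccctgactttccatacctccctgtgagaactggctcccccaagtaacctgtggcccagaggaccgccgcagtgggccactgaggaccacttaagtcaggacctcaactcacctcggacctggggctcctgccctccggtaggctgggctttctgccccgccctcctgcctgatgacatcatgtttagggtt
Bnip3: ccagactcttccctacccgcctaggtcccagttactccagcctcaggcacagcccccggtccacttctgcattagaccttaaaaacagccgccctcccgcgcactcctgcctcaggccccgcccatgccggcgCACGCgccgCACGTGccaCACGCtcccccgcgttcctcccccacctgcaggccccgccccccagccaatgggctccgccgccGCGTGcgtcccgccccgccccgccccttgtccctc
Car9: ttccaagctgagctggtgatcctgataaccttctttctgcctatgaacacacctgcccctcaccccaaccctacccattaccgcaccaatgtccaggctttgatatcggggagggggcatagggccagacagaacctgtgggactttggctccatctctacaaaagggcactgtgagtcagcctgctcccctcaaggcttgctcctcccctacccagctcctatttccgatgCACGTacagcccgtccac
Egln3: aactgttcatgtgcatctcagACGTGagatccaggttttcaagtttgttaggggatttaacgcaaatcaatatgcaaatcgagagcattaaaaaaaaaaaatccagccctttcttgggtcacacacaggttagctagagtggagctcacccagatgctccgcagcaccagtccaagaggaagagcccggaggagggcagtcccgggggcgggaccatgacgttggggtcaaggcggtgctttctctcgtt
These windows lie at chr12:73907617-73907866 (+), chr9:66713436-66713685 (+), chr7:138909507-138909756 (-), chr4:43506776-43507025 (+) and chr12:54203875-54204124 (-). Those of Hif1a and, in part, of Car9 and Bnip3 fall inside the gene span of the deposited tables, whose annotated start lies further upstream. Bnip3 held 5 matches, a number reached by 1.01% of the 32851 promoters in the table, with the first base of its CACGTG 108 bases before the start. Hif1a held 3, a number reached by 6.58%, and Car9 and Egln3 held 1 each, at 18 and 229 bases before the start. Car12 held none, while 38.6% of all promoters held at least 1. The table had a promoter for 8 of the 10 genes, and 7 of these held a match in at least 1 window. By window, as the 38.6% was counted, 8 of 10 held a match. Vegfa held its 2 matches only in the window of an alternative start, and 0 in its first window. Vegfa and Pfkfb3, also high in the LG/J libraries numbered 1, are not printed here. A match describes letters in this window and is not a measured site.

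Other genes of the pathway were read from 7 lists, whose counts stand beside 16.4% higher and 13.5% lower among all genes tested (17.1% and 15.1% without both LG/J libraries numbered 1). The HIF subunits, partners and oxygen sensors gave 4 higher and 4 lower of 17, with a median log2 fold change of 0.08. Arnt2, a beta subunit best known from neurons, was lower at 7.34 ± 3.37 CPM in LG/J against 17.4 ± 7.76 CPM in SM/J (-1.24 ± 0.23, adjusted p = 0.000106). The coactivator Crebbp was slightly higher (0.24 ± 0.05, adjusted p = 0.000246), as was Hif1an, the asparagine hydroxylase that restrains HIF alpha subunits (0.27 ± 0.07, adjusted p = 0.00164). The counts were the same without both LG/J libraries numbered 1, but the genes were not. Eloc lost its call as lower (-0.13 ± 0.06, adjusted p = 0.0884). Cited2 became lower (-0.78 ± 0.24, adjusted p = 0.0111), where with all libraries it did not pass (-0.30 ± 0.31, adjusted p = 0.507).

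The glycolysis and lactate list gave 5 higher and 1 lower of 18 (median 0.11), or 4 higher and 1 lower without both LG/J libraries numbered 1 (median 0.04). Aldoc, an aldolase, averaged 56.1 ± 26.4 CPM in LG/J against 13.7 ± 12.0 CPM in SM/J (2.03 ± 0.32, adjusted p = 1.07e-05), and Hk2, a hexokinase that starts glycolysis, 106 ± 21.3 CPM in LG/J against 67.9 ± 9.90 CPM in SM/J (0.64 ± 0.09, adjusted p = 1.16e-06). Both passed without the LG/J libraries numbered 1 as well, at 1.89 and 0.70. Gapdh was lower (-0.67 ± 0.10, adjusted p = 1.93e-06), but 82 near-identical annotated copies took 162 CPM beside its own 24.3 CPM, so its value is uncertain.

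Among secreted and matrix-modifying proteins 2 were higher and 1 lower of 14 (median -0.16), but without both LG/J libraries numbered 1 it was 2 higher and 4 lower (median -0.13). The glycoprotein hormone Stc2 averaged 128 ± 32.1 CPM in LG/J against 77.8 ± 17.4 CPM in SM/J (0.73 ± 0.12, adjusted p = 1.59e-05), and the growth factor Tgfa was higher at 1.33 ± 0.24 (adjusted p = 6.34e-05). Among the genes lower without those 2 libraries were Adm, a peptide hormone that widens blood vessels (-1.78 ± 0.30, adjusted p = 3.65e-05), Angptl4, a lipase inhibitor (-0.71 ± 0.14, adjusted p = 0.000245), and Lox, an enzyme that crosslinks collagen (-1.36 ± 0.46, adjusted p = 0.0237), which with all libraries had adjusted p of 0.2, 0.523 and 0.0816.

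The regulators, mitophagy and stress genes gave 4 higher and 1 lower of 16 (median 0.19), but 2 higher and 2 lower without both LG/J libraries numbered 1 (median 0.11). Bhlhe41, a transcriptional repressor, averaged 316 ± 152 CPM in LG/J against 177 ± 54.5 CPM in SM/J (0.84 ± 0.21, adjusted p = 0.00323), and Mxi1, an antagonist of MYC, was higher by 0.60 ± 0.15 (adjusted p = 0.00213). Insig2, which holds back cholesterol synthesis, was lower at 117 ± 18.7 CPM in LG/J against 168 ± 19.6 CPM in SM/J (-0.52 ± 0.07, adjusted p = 9.81e-07). Bnip3l, the paralog of Bnip3, did not pass (0.15 ± 0.10, adjusted p = 0.261). Without both libraries numbered 1 the calls of the demethylase Kdm3a (0.19, adjusted p = 0.0908) and the repressor Bhlhe40 (0.17, adjusted p = 0.234) were lost, and Hilpda, a lipid droplet protein, was lower (-0.22, adjusted p = 0.0178).

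Of the other VEGF ligands and receptors, 1 of 8 was higher and none lower (median -0.04): the co-receptor Nrp2, at 83.8 ± 39.7 CPM in LG/J against 51.5 ± 9.92 CPM in SM/J (0.71 ± 0.16, adjusted p = 0.000786). Of the other carbonic anhydrases, 2 were higher and 4 lower of 9 (median -0.48). Car2, a cytosolic form, was at 0.0617 to 1.92 CPM in LG/J against 0.776 to 47.5 CPM in SM/J, 29.6-fold lower (-4.89 ± 0.51, adjusted p = 5e-09), Car13 was lower by 0.86 on the log2 scale (-0.86 ± 0.16, adjusted p = 6.89e-05), and Car11, which lacks enzyme activity, was higher (0.81 ± 0.23, adjusted p = 0.00724). Among PFKFB and NDRG paralogs 2 were higher (Ndrg2, 0.97 ± 0.26, adjusted p = 0.00515, and Pfkfb2, 0.26 ± 0.08, adjusted p = 0.00937) and 2 lower of 6 (Ndrg3 and Pfkfb1, the last at -0.57 ± 0.18, adjusted p = 0.0166). Without both libraries numbered 1 the VEGF list had 1 higher, the carbonic anhydrases 2 higher and 3 lower, and the paralogs 2 higher and 1 lower. Without the 6 libraries that held transcripts of both sexes the calls of Bhlhe41 (adjusted p = 0.0757), Car11 (0.0806), Ndrg2 (0.085), Pfkfb2 (0.114) and Pfkfb1 (0.193) were lost.

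**Figure D3:**
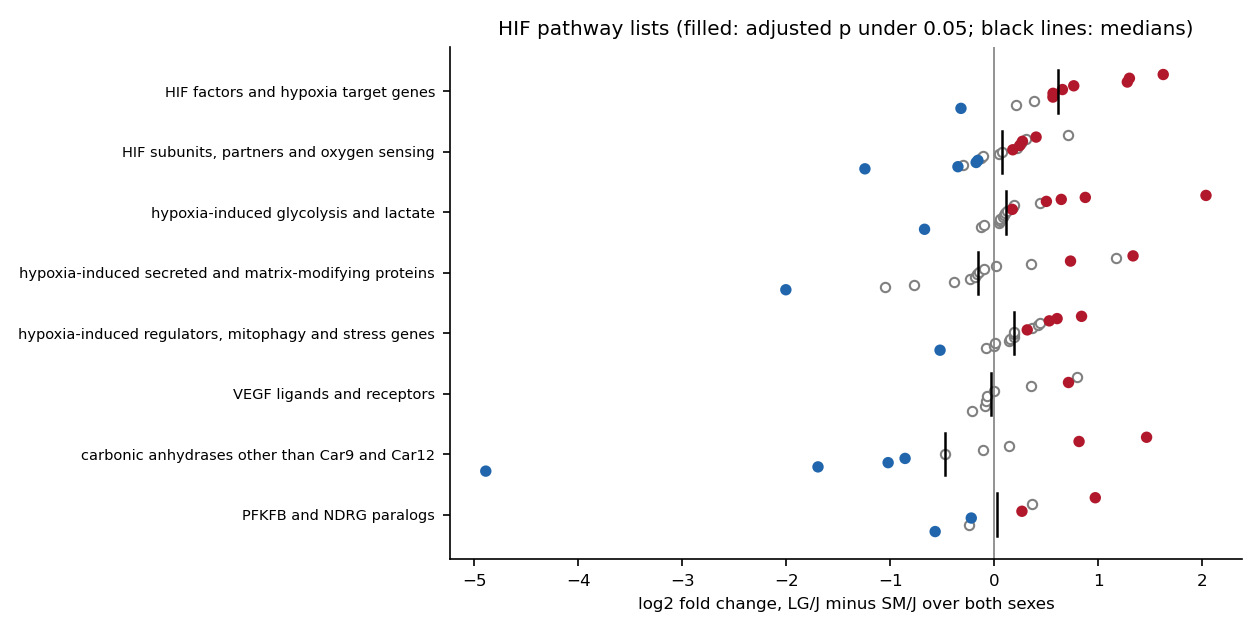
Log2 fold change over both sexes (LG/J minus SM/J) of every tested gene in the 10-gene set (top row) and in the 7 pathway lists, 1 point per gene, filled where the adjusted p was under 0.05, with the list median as a black line. The medians of the 7 lists lie between -0.48 and 0.19, and that of the 10 genes at 0.61; Car2 is the point near -5.

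How the genes moved from library to library within a group was described over the 30 libraries other than both LG/J libraries numbered 1, as Pearson's r of log2 CPM after removal of each group's mean. These points share library, depth and, for close pairs, possibly their culture, and no test was made. Some library numbers deviated alike across groups. In number 3, Bnip3 deviated by -0.87 and -0.54 in LG/J females and males, and by -0.84 and -0.51 in SM/J females and males. In number 7 it deviated by 0.73, 0.64, 0.43 and 0.30 in the same order, but in number 2 by 0.24, -0.495, 0.33 and -0.54. The part of the library number in the correlations below was not tested. Bnip3 ran closest with Higd1a, a hypoxia-induced protein of the inner mitochondrial membrane (r = 0.96), and with Egln1, the main prolyl hydroxylase of HIF alpha subunits (r = 0.93). Neither of these passed between strains: Higd1a was at 254 ± 67.9 CPM for LG/J and 255 ± 69.3 CPM for SM/J (0.00 ± 0.14, adjusted p = 0.984), and Egln1 at 31.4 ± 10.5 CPM for LG/J and 25.4 ± 4.82 CPM for SM/J (0.30 ± 0.14, adjusted p = 0.101). Slc2a1 ran closest with the calcium-binding protein gene S100b (0.91) and the aspartate aminotransferase Got1 (0.90), Epas1 with Hand2os1 (0.90), and Ndrg1 with Lin7a (0.89) and Dhrs9 (0.88). Car9 ran closest with Dhdh (0.86) and Fgf21 (0.86), Car12 with the fatty acid desaturase Fads2 (0.86) and the kinase Pak1 (0.85), and Hif1a with Lrrc32 (0.85) and Nfkb1 (0.82), a subunit of NF-kappaB. Pfkfb3 followed with Sacm1l (0.84) and Grb10 (0.82), Vegfa with Trmt13 (0.74) and Epb41l4b (0.71), and Egln3, the lowest gene, with Grin1 (0.65) and Ptprr (0.62).

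**Figure D4:**
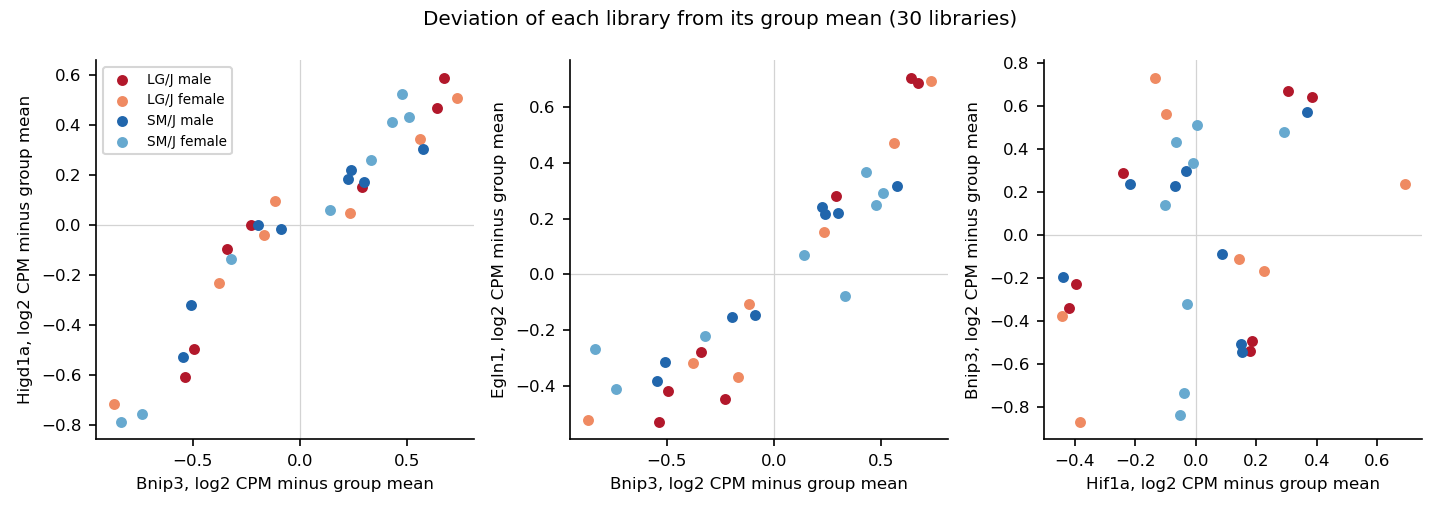
Deviation of log2 CPM from the group mean in 30 libraries, 1 point per library, for Bnip3 against Higd1a, Bnip3 against Egln1 and Hif1a against Bnip3, coloured by group. The points of the first 2 panels fall along a line (r = 0.96 and 0.93), and those of the last are scattered (r = 0.29).

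Among the 45 pairs of the 10 genes, r reached 0.6 in 4: Slc2a1 with Bnip3 (0.72), Pfkfb3 with Bnip3 (0.70), Car9 with Bnip3 (0.63) and Car9 with Ndrg1 (0.61). It was below 0 in 12 pairs. Hif1a RNA was set against each of the other 9 genes over 24 units, with close pairs averaged and the libraries numbered 1 left out, and tested by 100000 permutations within groups (two-sided). Pearson's r lay between -0.51 for Epas1 (permutation p = 0.0796, Spearman's rho -0.22) and 0.40 for Pfkfb3 (permutation p = 0.0722, rho 0.36), and none of the 9 relations passed, with a smallest Benjamini-Hochberg p of 0.263. Without the 2 libraries with Hif1a farthest from its median, LG/J female 2 and SM/J male 5, r was -0.22 for Epas1 and 0.35 for Pfkfb3. For Bnip3 r was 0.38 (permutation p = 0.117, rho 0.37) and 0.35 without those libraries.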

How the data were processed

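Per the labels' protocols, a SMARTer kit turned total RNA into libraries. Reads were aligned with STAR 2.0.4b and counted with featureCounts 1.45 of the Subread package on GRCm38 (submitters' processing notes). Annotation release and strand setting: not given in the sources used here. Each library's table, as the authors deposited it, holds whole-number counts for 41388 genes beside CPM and RPKM. The deposited CPM and RPKM equalled values recomputed from the counts within 1.2e-10 and 9.1e-11, and the tests used the deposited counts. A symbol was found for 40254 IDs.

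Genes were filtered (filterByExpr), scaled by TMM and fitted in edgeR 4.0.16 (R 4.3.3) with glmQLFit (robust) and 1 mean per strain and sex group over all 32 libraries. The contrasts were the strain difference, LG/J minus SM/J, pooled over the sexes and within each, its interaction with sex, and male minus female. P-values were adjusted over 16136 genes. The SE is the size of the log2 fold change over the square root of F. Sampling noise between libraries was taken from their counts. Levels per kilobase used the gene lengths of the deposited tables. Alternatives were other scalings, filters, DESeq2 1.42.0, voom of limma 3.58.1, the library number as a block, sets of libraries left out, close pairs summed and each library left out. The fit was tested on simulated data.

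The 10 genes, the lists and the tests were chosen with earlier results of these data known. The rule for naming took all 10 genes, up to 3 called genes with the smallest p from each list, and for each of the 10 genes the 2 most alike in pattern, leaving out predicted genes and pseudogenes. Higd1a, Egln1, Bnip3l and Ndrg3 are also list members. Bnip3l, Ndrg3, Kdm3a, Bhlhe40, Hilpda, Adm, Angptl4, Lox, Eloc and Cited2 were named after their values were seen. Of the genes this rule named, 2 are not reported here. Promoters came from a RefSeq table of GRCm38.p6. The number of libraries limits precision, and low genes such as Egln3 also carry counting error.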

Additional observations from a re-analysis of the deposited data

Results flagged for a closer look

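Of 40 sets of 8 libraries (10 genes in 4 groups), 11 held a library whose gap to its neighbour was over 0.526 of the whole range. This is Dixon's limit, which chance alone passes in about 5% of sets of independent, normally distributed values. The CPM were not put on a log scale and the 40 sets reuse the same 32 libraries, so the 11 cannot be judged by that rate. Both LG/J libraries numbered 1 accounted for 8 of the 11. The LG/J male numbered 1 had 144 CPM of Epas1 (next highest LG/J male 32.3), 20.6 CPM of Vegfa (6.90), 84.2 CPM of Car9 (19.0) and 7.26 CPM of Egln3 (1.54). The LG/J female numbered 1 had 166 CPM of Epas1 (next highest LG/J female 42.3), 27.99 CPM of Vegfa (8.75), 87.4 CPM of Car9 (12.2) and 8.69 CPM of Egln3 (1.72). The other flagged values came from SM/J libraries numbered 1: 15.0 CPM of Car9 (next highest SM/J male 7.97) and 198 CPM of Pfkfb3 (109) in the male, and 179 CPM of Hif1a (next highest SM/J female 147) in the female. All 11 thus lay in libraries numbered 1. A role for the number was not tested.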

How the results depend on the processing

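Of the 10 genes, 8 differed between strains over both sexes. The number was 5 with voom, 3 without both LG/J libraries numbered 1, 4 when the 6 libraries holding both sexes' transcripts were left out too, and 5 to 8 when each library was left out in turn (5 without LG/J female 1 or LG/J male 1). In females the 4 calls became 2 without the 6 libraries, 2 without both sets and 2 with close pairs summed. In males the 3 calls became 5 with DESeq2, 5 with the replicate block and 2 to 5 with each library left out (5 without LG/J female 1 or SM/J male 1). Between the sexes the 1 call became 2 with voom, 2 with the block and 0 with close pairs summed. The 7 lists kept 22 to 43 calls against 33 in the fit reported. Hif1a, Car12 and Bnip3 passed over both sexes in all 12 alternatives and all 32 fits without 1 library. The sign of Epas1 turned over both sexes with voom (-0.21), without both LG/J libraries numbered 1 (-0.28) and without both sets (-0.29). In females it turned to -0.17 and -0.41 in the same 2 omissions and ranged from -0.17 to 0.66 with each library left out. In males it turned to -0.38 and -0.16 and ranged from -0.38 to 0.38. Without both sets Car9 turned in females (-0.67) and Vegfa in males (-0.13), and Slc2a1 turned in females without the 6 libraries (-0.059) and without both sets (-0.14). The cause of these changes was not tested beyond the libraries named. The 4 groups share library numbers, which no label says mark a shared animal, batch or day. Deviations of same-numbered libraries correlated with a median of 0.14 (-0.45 to 0.84), those of differently numbered ones with a median of -0.01. The correlation was above 0.1 in 30 of 48 same-numbered pairs, and 7 of 32 libraries were most alike to one of their own number. How many would be so without any tie between same numbers was not computed. The fit reported took no pairing from the numbers because no label gives one, and a role for the number was not tested. With the number as a block, over both sexes, Slc2a1 passed (0.21, adjusted p = 0.0289) and Vegfa (0.42, adjusted p = 0.0726) and Egln3 (0.75, adjusted p = 0.0525) did not. Egln3 rests on 6 to 35 counts in 30 libraries, which limits its precision.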
